A study of Mus musculus with 6 samples.

Results

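The genes of respiratory complexes II to V were followed in whole mouse kidney 24 h after ischemia, in wild type mice and in mice without LIGHT (the product of Tnfsf14, a TNF family ligand made mainly by immune cells). Members were all genes of the deposited table whose symbols begin with Sdh, Uqcr, Cox4 to Cox8, Cox10 to Cox19, Atp5, mt-Co, mt-Cytb or mt-Atp, together with Cyc1 and Cycs. This gave 65 of 13026 genes, 59 encoded in the nucleus and 6 in the mitochondrial genome. All animals were adult males on a C57BL/6J background, LIGHT+/+ (wild type, WT) or LIGHT-/- (LIGHT knockout), with 3 libraries of each genotype. Every animal had both kidneys clamped for 32 min and then reperfused for 24 h. Kidneys without surgery were not analysed here, and the contrast is between genotypes after injury. Since Tnfsf14 was not analysed here either, nothing in the data checks the genotype labels directly. The labels do not say whether each library is a separate mouse, and p-values therefore measure the spread between these samples, which may be technical.

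Values are FPKM, in which fragments are divided by transcript length and by the library's mapped fragments, so levels can be compared between genes. FPKM holds no read counts, so the depth of the libraries is unknown. FPKM of the whole table summed to 299667 to 318493 per library, and the 65 members took 8.87 to 10.6% of it, of which the nuclear members made up 1.97 to 2.31 percentage points. All markers of proximal tubule (10 genes), thick ascending limb and distal tubule (7), collecting duct (5), podocyte (4) and endothelium (5) on the lists used were present, in keeping with the tissue label. Knockout library 3 stood apart, correlating with each other library at a Pearson r of 0.934 to 0.956 across genes, whereas the remaining libraries correlated at 0.976 to 0.989. That library also held markers of adipocytes, of which Cfd, Adipoq, Cidea, Ucp1 and Plin1 stood at 63.6, 13.1, 6.54, 4.65 and 3.51 FPKM there and at no more than 0.15 in any other library. The table holds only genes with a group mean of at least 0.50043 FPKM. These markers reached it through that library alone, so their peak there was set by how the table was made. The same holds for Pvalb, a distal tubule marker, at 8.62 FPKM there and at no more than 0.452 in any other library. Results are therefore given with and without knockout library 3.

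Complex II, succinate dehydrogenase, oxidises succinate in the citric acid cycle and passes the electrons to ubiquinone, and all its subunits are nuclear genes. Complex III carries the electrons on to cytochrome c, complex IV hands them to oxygen, and complex V, the ATP synthase, uses the proton gradient that complexes I, III and IV build. Complexes III, IV and V mix subunits of both genomes, which are assembled in fixed proportion. The proximal tubule relies on this machinery for its transport work, and succinate that accumulates in ischemia is oxidised through complex II at reperfusion.

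None of the 64 members tested differed between genotypes at a limma adjusted p under 0.05, the smallest being 0.592, and none had an unadjusted p under 0.05. Over all 12836 genes tested, 0.117% passed the adjusted threshold, made up of 0.0234% above and 0.0935% below wild type, and an unadjusted p under 0.05 was reached by 8.08%. The nuclear subunits of complexes II to V (42 tested) had a median log2 fold change, knockout over wild type, of 0.06, against -0.01 over all genes tested. Of these 42 subunits 32 were higher in the knockout, where 47.9% of all genes tested were. Cox6a2 is counted among the 32, although it is in the table only through knockout library 3. Without knockout library 3 the median was 0.02 and 25 were higher, and with library weights the median turned to -0.03. Fold changes are on the scale log2(FPKM + 1), where those of genes of low level come out too small.

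**Figure D1:**
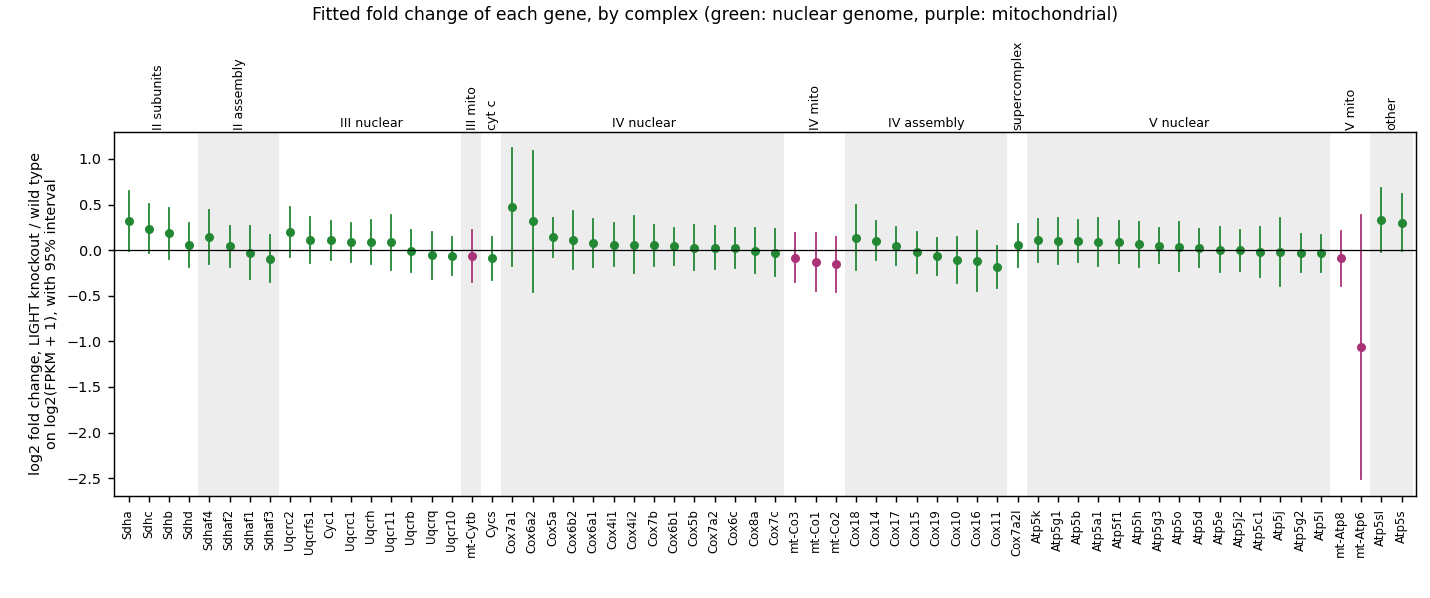
Log2 fold change of each of the 64 tested genes (knockout over wild type, on log2(FPKM + 1)), grouped by complex and role; points are limma estimates from 3 against 3 libraries and lines their 95% intervals. Of the nuclear subunits 38 of 42 have an interval within 0.5 on either side of 0, the tissue isoform Cox7a1 lies highest at 0.47, the 4 subunits of complex II lie above 0, and all 6 mitochondrially encoded genes lie below 0, with mt-Atp6 at -1.06, although under quantile normalization mt-Atp8, mt-Co2 and mt-Co3 turned positive.

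The absence of a call came with narrow intervals for most members. For 57 of the 64, the 95% interval of the log2 fold change lay within 0.5 on either side of 0. The same held for 7120 of all 12836 genes tested. The intervals are for single genes and are not adjusted for their number. Among the 38 nuclear subunits with a mean of at least 24.7 FPKM, the coefficient of variation had a median of 4.76% over wild type and 8.74% over knockout libraries. The 2154 other genes in the same range of means had medians of 7.81 and 12.0%. Of all 64 members, 4 had every knockout library above every wild type library (Sdha, Cox5a, Atp5g3 and Atp5sl) and 1, Cox11, had every one below. Over all genes tested these shares were 7.76 and 8.8%, so neither count exceeded the background.

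Many nuclear subunits were highest or lowest in the same libraries. Knockout library 3 held the highest value of 24 of the 42 subunits and knockout library 1 of 11. Among the 24 is Cox6a2, which is in the table only through knockout library 3. Knockout library 2 held the lowest value of 19 and wild type library 3 of 17. The high side was thus held mostly by knockout libraries, while the low side was shared by both genotypes. Shares over all genes tested are not given beside these counts, and knockout library 3 stood apart across genes. The counts can therefore not be read as a trait of these subunits.

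**Figure D2:**
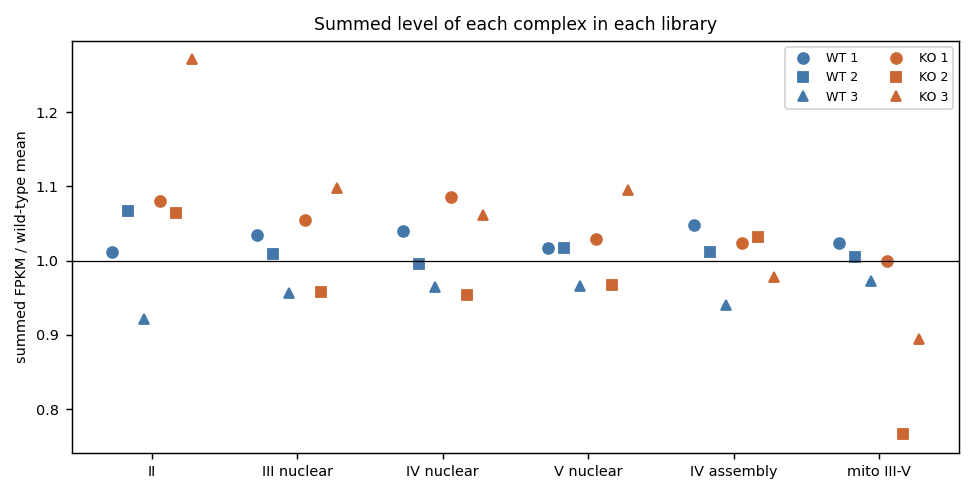
Summed FPKM of each group of genes in each library, divided by the mean of the 3 wild type libraries; blue symbols are wild type, orange symbols knockout, and the line marks 1. Knockout library 3 is high for complexes II, III and V, and knockout libraries 2 and 3 are the lowest for the mitochondrially encoded genes.

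Complex II had the highest median among the groups of nuclear subunits, although no subunit passed. The 4 subunits had a median log2 fold change of 0.21 and all 4 were higher in the knockout, also without knockout library 3, where the median was 0.13. With library weights the median was 0.09 and Sdhd turned to -0.03. Sdha (ENSMUSG00000021577 in the annotation, chromosome 13, 74322254 to 74350280, mm10) encodes the flavoprotein that binds succinate. It stood at 130, 131 and 111 FPKM in wild type and at 140, 143 and 184 in knockout, which is a log2 fold change of 0.32 ± 0.14 (SE, limma adjusted p = 0.592). The groups did not overlap, but wild type library 3 lay below its group and knockout library 3 above its own. Without knockout library 3 the log2 fold change was 0.19 (limma adjusted p = 0.746).

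Sdhc, one of the membrane anchors that hold heme, stood at 62.8, 55.9 and 53.1 FPKM in wild type and at 67.1, 61.2 and 74.5 in knockout (log2 fold change 0.23 ± 0.11 SE, limma adjusted p = 0.598). Sdhb, the iron-sulfur subunit, stood at 84.5, 86.5 and 75.7 and at 88.7, 85.9 and 107. In both genes the groups overlapped through knockout library 2, and knockout libraries 1 and 3 lay above the wild type range. Sdhd, the other anchor and the most abundant of the 4 transcripts, stood at 164, 191 and 161 and at 175, 173 and 188, with a log2 fold change of 0.06.

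**Figure D3:**
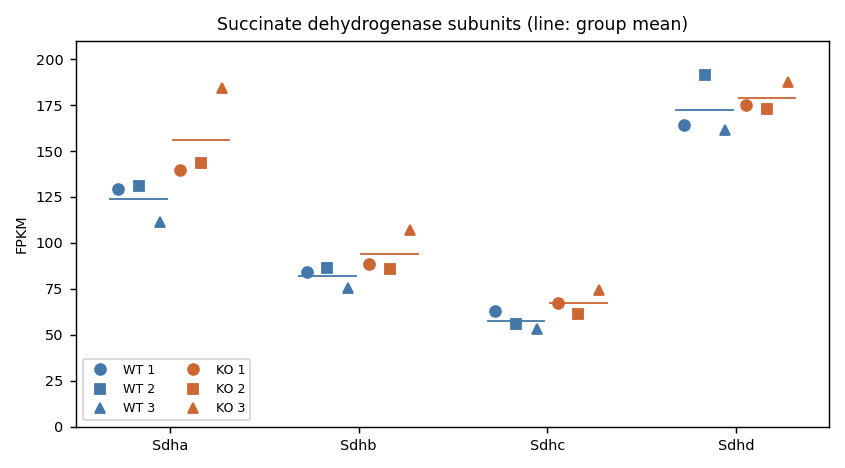
FPKM of the 4 succinate dehydrogenase subunits in each library; blue symbols are wild type, orange symbols knockout, and lines are group means (n = 3 each). Sdha is the 1 subunit whose groups do not overlap, and knockout library 3 is the highest library for Sdha, Sdhb and Sdhc.

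The assembly factors of complex II showed no common direction. For Sdhaf2, which attaches the flavin to Sdha, mean FPKM was 12.4 ± 0.760 in wild type and 12.7 ± 0.850 in the knockout libraries (SD, n = 3 each). Sdhaf4, which binds the flavinated Sdha, stood at 15.6, 14.1 and 12.3 FPKM in wild type and at 13.8, 16.3 and 16.7 in knockout, with overlapping groups. Sdhaf1 and Sdhaf3, which serve the iron-sulfur subunit, averaged 9.21 ± 1.41 and 8.93 ± 0.0721, and 2.14 ± 0.224 and 1.94 ± 0.176. The median log2 fold change of the 4 factors was 0.01.

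Markers of tubule and other cells also differed between libraries. The 10 proximal tubule markers summed to 862 to 1088 FPKM in wild type and to 1277, 1305 and 2321 in the knockout. All 10 were higher in the knockout, none past the adjusted threshold. Of the 10, 9 were without overlap on the higher side, beside 7.76% of all genes tested. Without knockout library 3 these values were 9 and 11.2%. The 7 tubular injury markers summed to 5719 to 6358 in wild type and to 5961, 4698 and 1613 in the knockout. The 7 neutrophil markers summed to 63.6 to 95.8 and to 45.6, 66.8 and 20.7. By these sums knockout library 1 was within the wild type range for injury markers, and knockout library 2 for neutrophil markers. Single genes could differ from the sums. Spp1, with a wild type mean of 4520 FPKM, made up most of the injury sum. Havcr1 stood at 895, 770 and 833 in wild type and at 596, 415 and 143 in knockout. It was the 1 injury marker without overlap, and 2 neutrophil markers were without overlap on the lower side, beside 8.8% of all genes tested. The 7 thick ascending limb and distal markers summed to 573 to 891 in wild type and to 475, 593 and 964 in the knockout. Umod made up most of that sum, and 5 of the 7 were highest in knockout library 3. Among these 5, Pvalb is in the table only through that library, so its peak there is no result. The 5 collecting duct markers summed to 89.1 to 155 and to 83.0, 134 and 424. The 4 smooth muscle markers summed to 149 to 360 and to 139, 135 and 106, mostly Tagln and Acta2. Myh11 and Cnn1 were instead highest in knockout library 3, at 11.5 and 3.05 FPKM. The part of these differences in the complex II values was not tested. In whole tissue, fewer cells of a type and less RNA per cell cannot be told apart.

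In complex III, the 9 nuclear genes had a median log2 fold change of 0.08, with 6 higher and 3 lower, and a median of 0.04 without knockout library 3. With library weights the median turned to -0.03. Uqcrc2, a core protein of the matrix side, stood at 111, 117 and 97.7 FPKM in wild type and at 116, 119 and 140 in knockout (log2 fold change 0.20 ± 0.12 SE, limma adjusted p = 0.627). Knockout libraries 1 and 2 lay within or just above the wild type range and knockout library 3 well above it. Its partner Uqcrc1 stood at 68.3, 65.2 and 63.2 and at 70.7, 64.7 and 73.5. The redox subunits also overlapped between genotypes. Uqcrfs1, the Rieske iron-sulfur protein, stood at 194, 183 and 170 FPKM in wild type and at 192, 182 and 217 in knockout. Cyc1, cytochrome c1, stood at 196, 194 and 181 and at 210, 193 and 213 (log2 fold change 0.11 ± 0.09 SE, limma adjusted p = 0.709). In both, knockout library 3 was the highest of the 6. Uqcr10, a small subunit and the most abundant nuclear transcript of the complex, stood at 293, 299 and 288 and at 287, 267 and 288 (log2 fold change -0.06). The small subunits Uqcrb, Uqcrq, Uqcrh and Uqcr11 had log2 fold changes from -0.06 to 0.08. Cycs, the mobile carrier cytochrome c, stood at 112, 110 and 108 FPKM in wild type and at 115, 94.6 and 102 in knockout (log2 fold change -0.09). Thus 2 knockout libraries lay below and 1 above the wild type range. Of the 31-base words of Cycs, 29.2% also occur in transcripts of other genes, which makes its value less certain.

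The 10 widely expressed nuclear subunits of complex IV, leaving aside 5 tissue isoforms, spanned 54.2 FPKM (Cox6c) to 433 FPKM (Cox8a) in wild type means and had a median log2 fold change of 0.04. Their 95% intervals all lay within 0.5 on either side of 0. Without knockout library 3 the median was 0.00, with 5 higher and 5 lower. With library weights Cox4i1, Cox6a1 and Cox7a2 changed sign, and the median over all 14 nuclear subunits tested turned from 0.06 to -0.04. Cox5a, a matrix subunit, was the only one of them whose groups did not overlap, at 210, 213 and 205 FPKM in wild type and 234, 213 and 244 in knockout (log2 fold change 0.14 ± 0.09 SE, limma adjusted p = 0.657). Knockout library 2 was level with the highest wild type library to 3 digits. Cox4i1, the general form of subunit 4, stood at 153, 151 and 146 FPKM in wild type and at 155, 144 and 172 in knockout. Cox6a1, the general form of subunit 6a, stood at 374, 333 and 329 and at 399, 333 and 362. Cox6b1, which faces the intermembrane space, stood at 320, 313 and 315 and at 328, 312 and 336. The general forms of subunits 7a and 8 likewise overlapped, and in all 5 genes knockout library 2 was the lowest of the knockout libraries. Cox7a2 stood at 224, 226 and 210 and at 244, 205 and 225. Cox8a, the most abundant nuclear member, stood at 456, 431 and 411 and at 465, 398 and 432. Cox7a2l, a relative of Cox7a2 that joins complexes III and IV into supercomplexes and is shortened in C57BL/6 strains, stood at 106, 101 and 105 and at 98.2, 108 and 119, with knockout library 3 the highest.

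Several subunits of complex IV exist as tissue isoforms of heart, skeletal muscle and brown fat. Cox7a1, the muscle and brown fat form of subunit 7a (chromosome 7, 30184144 to 30186078), stood at 5.92, 4.88 and 5.96 FPKM in wild type and at 5.67, 7.07 and 13.1 in knockout. The log2 fold change was 0.47 ± 0.27 (SE, limma adjusted p = 0.624) and was 0.16 without knockout library 3. It made up 2.11 to 2.76% of Cox7a1 and Cox7a2 together in wild type and 2.27, 3.32 and 5.48% in the knockout libraries. Cox8b, the muscle form of subunit 8, was listed at 0 in 5 libraries and at 1.90 FPKM in knockout library 3. Its mean over all libraries was below the filter, so it was not tested. Cox6a2, the muscle form of subunit 6a, stood at 0.459, 0.532 and 0 FPKM in wild type and at 0.456, 0.150 and 1.58 in knockout. Cox8b and Cox6a2 reached the table's lowest group mean of 0.50043 FPKM only through knockout library 3, so their peak there was set by how the table was made and is no result. Cox7a1 was above that level in every library.

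The adipocyte markers entered the table in the same way, apart from Fabp4, so their place in the library with the highest Cox7a1 value is no support for a link. The 7 adipocyte markers in the table summed to 12.8 to 20.9 FPKM in wild type and to 12.2, 18.8 and 132 in the knockout. Fabp4, which endothelium also expresses, made up most of the sum outside knockout library 3. It stood at 12.8, 17.9 and 20.8 FPKM in wild type and at 12.1, 18.6 and 35.8 in knockout. The part of fat tissue in the isoform values was not tested. None of the 10 skeletal and cardiac muscle markers was among the genes analysed here. Of the other tissue isoforms neither was highest in knockout library 3. Cox4i2, a form of subunit 4 that is abundant in lung, stood at 0.389, 0.517 and 0.706 FPKM in wild type and at 0.673, 0.655 and 0.470 in knockout. Cox6b2, the testis form of subunit 6b, stood at 4.01, 3.20 and 3.24 and at 4.41, 3.88 and 3.22.

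**Figure D4:**
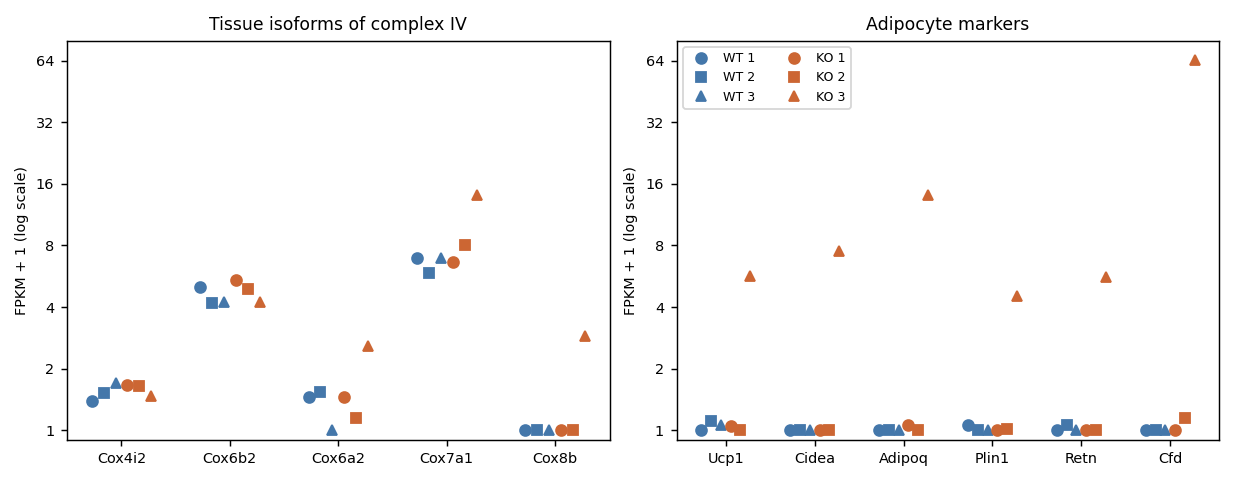
FPKM + 1 on a log scale in each library for 5 tissue isoforms of complex IV (left) and 6 adipocyte markers (right); blue symbols are wild type, orange symbols knockout. Cox7a1 is highest in knockout library 3 and Cox4i2 and Cox6b2 are not; Cox6a2, Cox8b and the 6 markers are in the table only through that library.

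The assembly factors of complex IV were less abundant than its widely expressed subunits, with a median wild type mean of 9.33 FPKM, and 5 of the 8 were lower in the knockout (median log2 fold change -0.04). Cox11, which delivers copper to the mitochondrially encoded subunit 1, stood at 11.7, 12.1 and 11.8 FPKM in wild type and at 10.97, 10.8 and 9.26 in knockout (log2 fold change -0.19 ± 0.09 SE, limma adjusted p = 0.599). Every knockout library was below every wild type library, by the widest margin in knockout library 3. Cox10 and Cox15 make heme A in succession. Cox10 stood at 9.60, 9.83 and 8.62 and at 8.41, 9.57 and 7.87, and Cox15 at 15.6, 13.6 and 13.2 and at 13.9, 13.8 and 14.1. Cox14, a factor for the synthesis of subunit 1 and the most abundant of the 8, stood at 60.6, 56.6 and 52.4 and at 60.5, 62.0 and 59.9. Cox18, which inserts subunit 2, stood at 2.91, 2.90 and 4.07 and at 4.27, 3.67 and 3.17. The groups of these 4 genes overlapped. Cox17, the copper chaperone of the intermembrane space, had a log2 fold change of 0.05. Cox16 overlaps other genes on its own strand and shares 55.2% of its 31-base words with them, so its value is uncertain.

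In complex V, the 15 nuclear subunits had a median log2 fold change of 0.04, with 10 higher and 5 lower, and all 15 intervals lay within 0.5 on either side of 0. Without knockout library 3 the median was -0.01, with 7 higher and 8 lower, and with library weights it was -0.04. In the catalytic head the groups overlapped. Atp5b, the beta subunit, stood at 312, 313 and 290 FPKM in wild type and at 331, 305 and 346 in knockout. Atp5a1, the alpha subunit, stood at 291, 308 and 280 and at 297, 290 and 351. Knockout library 3 was the highest for both. Atp5k, a small membrane subunit, had the highest log2 fold change of the 15, at 0.11 ± 0.10 (SE), with 108, 122 and 117 FPKM in wild type and 129, 115 and 131 in knockout. The smallest was that of Atp5l, another membrane subunit, at -0.04 ± 0.09.

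Subunit c, which forms the rotating ring, is encoded by 3 genes whose transcripts differed in level, with shares that overlapped between genotypes. Atp5g3 made up 60.4 ± 1.17% of the summed FPKM of the 3 genes in wild type and 61.2 ± 1.40% in the knockout libraries (SD, n = 3 each). Atp5g2 made up 30.1 ± 0.864% and 28.9 ± 1.34%, and Atp5g1 9.41 ± 0.388% and 9.94 ± 0.869%. Atp5g3 stood at 156, 153 and 148 FPKM in wild type and at 156, 157 and 160 in knockout, without overlap but with a log2 fold change of 0.05. Atp5g2 stood at 77.3, 73.2 and 77.9 and at 79.4, 71.7 and 72.3, and Atp5g1 at 24.9, 22.3 and 24.1 and at 26.2, 22.7 and 28.1, both with overlap. Atp5g2 shares 40.2% of its 31-base words with other genes, so its share is the least certain.

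The name pattern also took 2 genes that are not subunits of the ATP synthase proper. Atp5sl, now called Dmac2, serves the assembly of complex I, and stood at 8.19, 8.36 and 8.72 FPKM in wild type and at 9.76, 9.40 and 13.7 in knockout (log2 fold change 0.33 ± 0.15 SE, limma adjusted p = 0.595). Atp5s, now called Dmac2l or coupling factor B, stood at 7.78, 7.11 and 6.51 and at 7.59, 10.5 and 9.14 (log2 fold change 0.30 ± 0.13 SE, limma adjusted p = 0.592). In Atp5sl the groups did not overlap, and in Atp5s knockout library 1 lay within the wild type range.

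The 6 mitochondrially encoded members were far more abundant than the nuclear subunits and had negative log2 fold changes in the knockout, although under quantile normalization mt-Atp8, mt-Co2 and mt-Co3 turned positive. Their median was -0.11, and -0.12 without knockout library 3, and turned to 0.02 under quantile normalization. The catalytic core of complex IV is mt-Co1, which stood at 7799, 7306 and 7230 FPKM in wild type and at 7520, 6200 and 6733 in knockout (log2 fold change -0.13 ± 0.13 SE, limma adjusted p = 0.751). mt-Co2, which receives the electrons from cytochrome c, stood at 3519, 3349 and 3474 and at 3476, 2817 and 3017, and mt-Co3 at 3049, 3190 and 2980 and at 3063, 2750 and 2907. mt-Cytb, the mitochondrial subunit of complex III, stood at 6273, 5828 and 5762 and at 5928, 5354 and 5785. In each of these 4 genes knockout library 1 lay within the wild type range, and knockout library 2 was the lowest of all 6 libraries.

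Set against the nuclear subunits of the same complex, the mitochondrially encoded transcripts were lower in every knockout library. This ratio of summed FPKM does not depend on how a library is scaled as a whole. In complex III it was 4.45, 4.24 and 4.42 in wild type and 4.12, 4.10 and 3.87 in knockout. In complex IV it was 6.43, 6.48 and 6.61 and 6.04, 5.75 and 5.56, a knockout mean of 0.888 times that of wild type. In complex V it was 3.29, 3.52 and 3.37 and 3.26, 1.73 and 2.49. The groups did not overlap in any of the 3 complexes, though in complex V knockout library 1 lay just below wild type library 1. Without mt-Atp6 the complex V ratios were 1.503, 1.72 and 1.53 in wild type and 1.502, 1.42 and 1.41 in knockout. The knockout mean was then 0.911 times that of wild type, against 0.735 times with mt-Atp6. How often ratios of other sets of genes are without overlap was not computed. Taken singly, 0 of the 6 mitochondrially encoded members were without overlap.

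Over complexes III to V together the ratio had a mean of 4.85 ± 0.0396 in wild type libraries and 4.15 ± 0.379 in knockout libraries (SD, n = 3 each). The knockout mean was 0.857 times the wild type mean, and 0.872 times without knockout library 3. Leaving mt-Atp6 out of the sums, the means were 4.19 ± 0.0262 and 3.77 ± 0.177, a ratio of 0.901. Both the mitochondrial sum and the nuclear sum enter this ratio. In knockout library 2 the mitochondrial sum was low, at 20480 FPKM against 25976 to 27351 in wild type. There mt-Atp6 stood at 615 FPKM against 3570 to 3665. Nuclear subunits of complex III summed to 1305 to 1410 FPKM in wild type and to 1437, 1306 and 1496 in the knockout. For complex IV these sums were 2069 to 2233 and 2329, 2047 and 2277. For complex V they were 1937 to 2039 and 2062, 1938 and 2195. Knockout libraries 1 and 3 were above the wild type range in each complex, and knockout library 2 in none. Complex I, with its nuclear genes taken by name (Nduf without Ndufaf), had ratios of 7.05, 7.22 and 7.34 in wild type. In knockout they were 6.46, 6.13 and 5.71. The ratios share their libraries and are not independent of each other, and no p was computed for them because the genes were chosen. Under quantile normalization the knockout mean over complexes III to V was 0.940 times that of wild type. The proximal tubule markers, whose sums were given beside complex II, were also higher in every knockout library, and their part in the ratios was not tested.

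**Figure D5:**
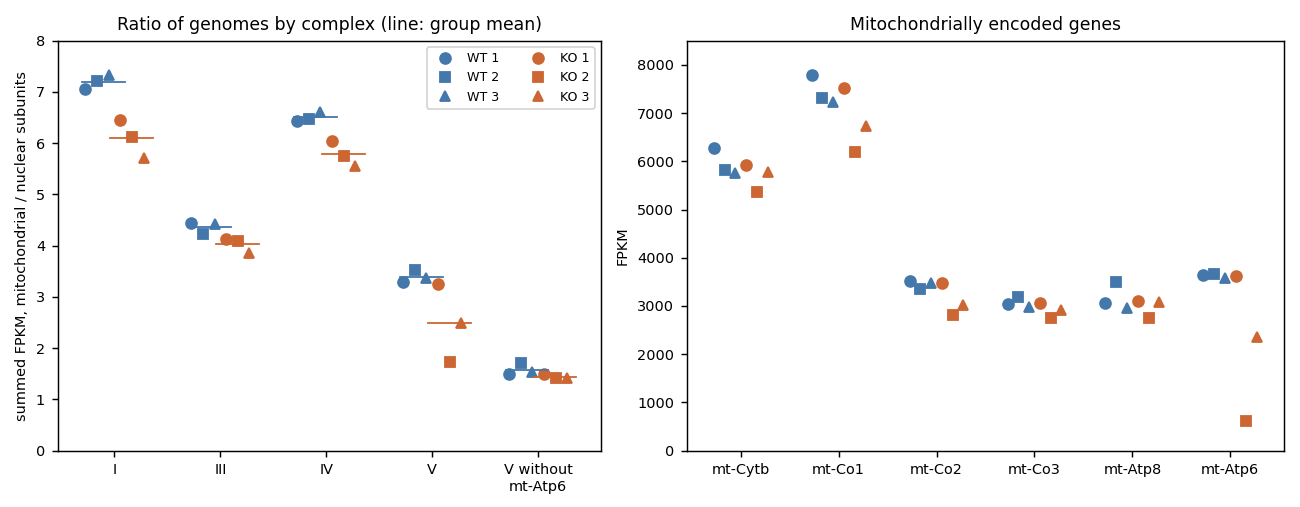
Left, ratio of summed FPKM of mitochondrially encoded to nuclear subunits of complexes I, III, IV and V in each library, with group means as lines (n = 3 each). Right, FPKM of the 6 mitochondrially encoded genes of complexes III to V; mt-Atp6 stands at 615 FPKM in knockout library 2, against 3570 to 3665 in the wild type libraries.

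The mitochondrially encoded member with the widest spread was mt-Atp6, subunit a of the proton channel (mitochondrial chromosome, 7927 to 8607). It stood at 3649, 3665 and 3570 FPKM in wild type and at 3630, 615 and 2366 in knockout, a log2 fold change of -1.06 ± 0.61 (SE, limma adjusted p = 0.624). Knockout library 1 was at the wild type level, and without knockout library 2 the log2 fold change was -0.31. Without knockout library 3 it was -1.28. Its neighbours on the mitochondrial genome were less far apart between libraries. mt-Atp8, subunit 8 of the ATP synthase, stood at 3063, 3505 and 2959 FPKM in wild type and at 3097, 2745 and 3092 in knockout, and mt-Co3 at 2750 in knockout library 2. The ratio of mt-Atp6 to mt-Atp8 was 1.05 to 1.21 in the wild type libraries and 1.17, 0.224 and 0.765 in the knockout libraries.

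The annotation of this stretch matters for how reads are assigned. The last 43 bases of mt-Atp8 are the first 43 bases of mt-Atp6, read in another frame, and mt-Atp6 shares 1 base with mt-Co3. The shared stretch (chrM:7927-7969, + strand, from the GENCODE transcripts) is printed with the first codon of mt-Atp6 and the last codon of mt-Atp8 in capitals.
mt-Atp8 and mt-Atp6: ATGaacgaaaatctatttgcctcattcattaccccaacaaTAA
Of the 31-base words of mt-Atp6, 99.5% also occur in transcripts of other annotated genes, with Gm10925 holding the most, as do 100% of those of mt-Co2, 99.9% of mt-Co3 and 63.9% of mt-Co1. For mt-Atp8 and mt-Cytb the shares were 7.47 and 6.55%. No source used here gives how reads with several matches were divided. The part of read assignment in the low mt-Atp6 value and in the ratios of mitochondrial to nuclear sums was not tested.

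Genes that build or regulate these complexes but lie outside the name pattern were also without a call. Of 26 further assembly factors of complexes III, IV and V, none passed over all genes. Of these 17 were higher and 9 lower, and the median log2 fold change was 0.03. Pet117, among the 17, is in the table only through knockout library 3, at 10.2 FPKM there and no more than 0.0064 elsewhere. Timm21, a translocase subunit that meets early complex IV intermediates, stood at 14.3, 13.5 and 13.1 FPKM in wild type and at 16.4, 15.8 and 19.2 in knockout (limma adjusted p = 0.592). Uqcc2, an assembly factor for cytochrome b, stood at 40.8, 46.1 and 46.4 and at 40.5, 35.8 and 34.8 (limma adjusted p = 0.592). In both genes the groups did not overlap, nor did they in Ttc19, a complex III factor chosen after its values were seen, at 6.81, 7.99 and 7.35 and at 6.41, 6.79 and 5.77. That made 1 of the 26 without overlap on the higher side and 2 on the lower, beside 7.76 and 8.8% of all genes tested. Of 20 genes of mitochondrial transcription and biogenesis none passed, 13 were higher and 7 lower, with a median of 0.05. Mterf1a, a mitochondrial transcription termination factor, stood at 0.813, 1.04 and 1.19 FPKM in wild type and at 1.317, 1.41 and 1.46 in knockout, without overlap. Slirp, which stabilises mitochondrial mRNA and was also chosen after its values were seen, did not overlap on the lower side, at 12.6, 12.6 and 12.2 and at 11.9, 10.3 and 11.1. Ppargc1b, a coactivator of respiratory genes, stood at 2.04, 1.62 and 1.73 and at 2.56, 1.87 and 2.49. The 38 nuclear genes taken as complex I by name (Nduf without Ndufaf) had a median of 0.11, with 34 higher. On the higher side 9 were without overlap, beside 3 of 42 for complexes II to V and 7.76% of all genes tested. Ndufa4 and Ndufa4l2 are among the 38, and the name alone does not settle their complex. Of the 7 mitochondrially encoded genes of complex I, 5 were without overlap on the lower side, beside 0 of 6 for complexes III to V and 8.8% of all genes tested. These differences between complexes were not tested.

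Promoters of the nuclear members were read to see what they share beside their names. Of the 59 nuclear members, 47 had 52 promoters in the RefSeq table (GRCm38.p6), each from 250 bases before to 50 after a start, and 3 of the 47 were matched through a synonym. Members without an entry were Atp5a1, Cox17, Cox18, Cox4i1, Cox4i2, Cox6a2, Cox6c, Cyc1, Sdhc, Uqcrb, Uqcrc2 and Uqcrq. Both strands were searched for CCGGAAG, the core bound by ETS factors such as GABP, for GCATGCGC, most of the site of NRF1, for the full NRF1 site, which is the same run with GC before it, and for AAGATGGCG, the core of YY1. CCGGAAG was present in 38.5% of the 52 promoters, against 16.5% of the 12487 promoters of genes tested and 8.86% of all 32851 in the table. GCATGCGC was present in 15.4%, against 4.85 and 2.71%, the full NRF1 site in 7.69%, against 1.92 and 0.971%, and AAGATGGCG in 9.62%, against 2.87 and 1.40%. At least 1 of these motifs was present in 26 of the 52, against 22.4% for genes tested and 12.1% of the table. A match is a run of letters and does not show that a factor binds there.

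Promoters of Atp5j, Atp5l and Cox6a1 held the most separate matches, 2 each in the 250 bases before the start. Atp5j also has a promoter at chr16:84835626-84835875, directly before the annotated start of the gene, which held 0 matches. The promoters with 2 matches are printed with the matches in capitals (GRCm38.p6, - strand, ending at the base before the start).
Atp5j, chr16:84834977-84835226: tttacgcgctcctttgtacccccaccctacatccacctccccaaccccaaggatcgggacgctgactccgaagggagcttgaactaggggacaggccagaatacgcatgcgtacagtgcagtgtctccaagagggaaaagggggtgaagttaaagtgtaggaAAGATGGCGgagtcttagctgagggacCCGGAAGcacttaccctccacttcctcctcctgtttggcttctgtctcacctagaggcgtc
Atp5l, chr9:44920743-44920992: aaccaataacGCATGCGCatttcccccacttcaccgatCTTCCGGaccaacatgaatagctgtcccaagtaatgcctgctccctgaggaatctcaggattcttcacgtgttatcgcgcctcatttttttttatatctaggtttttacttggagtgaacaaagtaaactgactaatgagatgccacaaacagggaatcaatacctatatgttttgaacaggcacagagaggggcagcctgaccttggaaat
Cox6a1, chr5:115348959-115349208: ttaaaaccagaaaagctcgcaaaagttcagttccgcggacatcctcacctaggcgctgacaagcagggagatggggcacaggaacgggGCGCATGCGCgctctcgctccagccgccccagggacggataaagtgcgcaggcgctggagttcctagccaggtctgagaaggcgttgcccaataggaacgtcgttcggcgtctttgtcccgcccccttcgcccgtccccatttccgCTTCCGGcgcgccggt
The printed Atp5j promoter holds the YY1 and ETS letters at 88 and 61 bases before its start. The Atp5j gene overlaps Gabpa, which encodes an ETS factor, on the opposite strand. Cox6a1 holds the full NRF1 letters at 162 bases and the ETS letters at 16 bases before the start. The 3 genes had log2 fold changes of -0.02, -0.04 and 0.08 and overlapping groups.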

How the data were processed

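RNA of whole kidney was measured in 6 libraries, 3 per genotype, grouped and numbered by their titles. Per the labels' protocols, a KAPA kit that keeps the strand was used. FPKM per gene were computed by the authors and deposited. The submitters' processing notes name FastQC, HISAT2, StringTie and mm10, while versions, annotation and use of strand in counting are not given in the sources used here. In every row the higher group mean was at least 0.50043 FPKM, so a gene low in both groups is outside the table.

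A filter at a mean of 0.5 FPKM over all libraries kept 12836 genes and removed 190. LIGHT knockout was compared with wild type on log2(FPKM + 1) in limma 3.58.1 (R 4.3.3) with a mean-variance trend. Two-sided p-values had a Benjamini-Hochberg adjustment across the filtered table, called under 0.05. With 3 against 3 the smallest p an exact permutation can give is 0.1. Members and lists were chosen with earlier results of these data known, so lists are given as counts and medians without a test. Members described one by one were all mitochondrially encoded genes, the isoforms, and in each complex the 4 with the smallest p and the 2 with the highest mean. Others were named after their values were seen, among them Atp5s, Atp5sl, Cycs, Atp5a1, Atp5l, Cox16 and Cox17. Positions are from GENCODE M21 on the assembly of mm10. Copies were judged by the share of 31-base words found in transcripts of other genes.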

Additional observations from a re-analysis of the deposited data

How the results depend on the processing

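Under none of the 18 alternatives did a member pass an adjusted p of 0.05, the smallest being 0.115, for mt-Atp6 with library weights. The count of all genes called was 15 and went to 52 with library weights and to 0 with the replicate block, and leaving out 1 library gave 0 to 11 (0 without wild type library 1, wild type library 3 or knockout library 2). The block changed no call among the members. Same-numbered libraries did not deviate together (correlations of 0.15, -0.13 and -0.02). With 3 libraries per group these correlations cannot exclude that the numbers pair the samples. With library weights the median log2 fold change was -0.030 for complex III, -0.044 for complex IV, -0.033 for all nuclear subunits and -0.22 for the mitochondrially encoded genes. Quantile normalization gave a median of 0.019 for the latter and a ratio of mitochondrial to nuclear sums of 0.940, knockout over wild type, since it sets the top ranks of every library to the same values. Leaving out 1 library gave ratios of 0.812 to 0.886, and medians of 0.13 to 0.27 for complex II, 0.04 to 0.15 for complex III, 0.02 to 0.10 for complex IV, -0.01 to 0.09 for complex V, -0.08 to -0.003 for assembly factors of complex IV, 0.02 to 0.11 for all nuclear subunits and -0.16 to -0.05 for the mitochondrially encoded genes. Leaving out mt-Atp6, an alternative chosen after seeing the data, gave a ratio of 0.901.

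Of 36 members recomputed, 13 changed sign under at least 1 alternative. With library weights this gave log2 fold changes of -0.00086 for Atp5g1, -0.041 for Cox4i1, -0.0047 for Cox6a1, -0.19 for Cox6a2, -0.081 for Cox7a2 and -0.032 for Sdhd. Quantile normalization gave 0.069 for Cox8a, 0.039 for mt-Atp8, 0.090 for mt-Co2 and 0.16 for mt-Co3. Scaling to an equal sum gave 0.0076 for Atp5g2, 0.016 for Cox15 and 0.036 for Cox8a, and for Cox8a median-ratio scaling gave 0.0043 and scaling to nuclear genes 0.016. Leaving out 1 library gave -0.033 to 0.089 for Cox7a2, -0.059 to 0.052 for Cox8a, -0.0078 to 0.12 for Cox4i1, -0.011 to 0.14 for Cox4i2 and -0.067 to 0.046 for Cox15. The causes were not tested. The ratio was not recomputed under pseudocounts, filters, variance models or the block, which do not enter it.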
